A study of Mus musculus castaneus and Mus musculus domesticus with 13 samples.

Results

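The genes described here are the mouse zinc finger genes whose symbols run from Zfp900 to Zfp999. All rows of the deposited count table with such a symbol were taken, which gave 66 of 21706 genes, on 12 chromosomes. By position in GRCm38, 46 of the 66 lay in 6 clusters of at least 3 members, with neighbouring members at most 2 Mb apart. The largest cluster held 16 members on chromosome 4 (145510759 to 147848366). Clusters of 10 members lay on chromosome 2 (175372436 to 178078476) and on chromosome 17 (21567008 to 22867134). Smaller ones held 4 members on chromosome 7 and 3 each on chromosomes 13 and 8, and 20 members lay outside any cluster.

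C2H2 zinc finger proteins read DNA through arrays of small zinc-binding fingers, and in many of them a KRAB domain recruits the corepressor TRIM28 and, through it, the histone methyltransferase SETDB1. Many KRAB zinc finger genes arose by recent tandem duplication in rodents, and their proteins silence endogenous retroviruses and other transposable elements in embryonic stem cells. The clusters on chromosomes 2, 4 and 13 are known from mouse embryonic stem cells as sources of such repressors.

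RNA was sequenced in 10 embryonic stem cell lines made by nuclear transfer of blood leukocytes (ntESC lines), to set lines of wild-derived mice beside those of a laboratory hybrid. They came from B6D2F1 mice (C57BL/6NCrSlc by DBA/2CrSlc hybrids; lines F2 and M3, n = 2), CAST/Ei mice (M2, M8, F1 and F2, n = 4) and CASP/1Nga mice (M3, M5, F4 and F6, n = 4), the last 2 strains being wild-derived M. m. castaneus. A B6D2F1 embryonic stem cell line (ESC), B6D2F1 embryonic fibroblasts (MEF) and CAST tail-tip fibroblasts (TTF) gave 1 library each. All ntESC lines were grown on mitomycin-treated B6 MEF feeders in 2i/LIF medium, with feeders removed by plating on gelatin before RNA was taken. Each line was 1 culture and 1 library, so p-values cover no more than the spread among these lines. The letter in a line's name is the sex of its donor, and its number only names the line. The single MEF and TTF libraries differ in strain, donor age and tissue, which cannot be told apart.

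Library totals lay between 33395162 and 49968894 counts. Levels are given as CPM (counts scaled to library size with TMM factors), and 3 counts corresponded to 0.0573 to 0.0926 CPM, a limit that covers counting error only. The summed level of 7 pluripotency markers was 3098 and 3170 CPM in the B6D2F1 ntESC lines, 2464 to 2794 CPM in the CAST lines and 3637 to 4099 CPM in the CASP lines, ranges that did not overlap. Its part in the strain differences below was not tested. It was 2482 CPM in the ESC library, 18.4 CPM in MEF and 0.342 CPM in TTF, and Pou5f1 was at 0 in both fibroblast libraries. The 9 fibroblast markers summed to 64.0 to 371 CPM in the ntESC lines, where none of the 9 was at 0, against 4823 CPM in MEF and 5611 CPM in TTF. In the line CASP F6 the genes of chromosome 2 stood higher than in the other lines of its strain (median log2 difference 0.48 over 1171 genes), and in CASP F4 those of chromosome 8 did (0.48 over 781 genes). Their part in results on these chromosomes was not tested beyond the values given without these lines. In bulk RNA, fewer expressing cells and less RNA per cell cannot be told apart.

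Of the 66 genes, 62 had a complete, in-frame coding sequence in GENCODE M21. Of the others, Zfp978 and Zfp986 are annotated as protein-coding but had no model that passed this check, and Zfp939 and Zfp996 are pseudogenes. The 62 coding sequences held a median of 11 C2H2 fingers (range 0 to 21), counted as the pattern of 2 cysteines and 2 histidines at fixed spacing. The letters of a KRAB A box were found near the start of 36 of the 62. By cluster they were found in 13 of 14 such sequences on chromosome 4, 9 of 10 on chromosome 17 and 0 of 10 on chromosome 2. Their absence says nothing on the other sequences beyond these letters. Many members are near copies of each other. The first finger of several genes is printed below as coding DNA of 69 bases, 5′ to 3′, because these are the genes on which the strain comparisons turn and because they show how alike the copies are. Capitals mark the codons of the 4 helix positions through which classical C2H2 fingers contact bases.
Zfp966: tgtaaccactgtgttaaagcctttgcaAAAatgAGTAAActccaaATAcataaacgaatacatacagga
Zfp965: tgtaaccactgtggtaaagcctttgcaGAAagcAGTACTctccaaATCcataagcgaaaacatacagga
Zfp970: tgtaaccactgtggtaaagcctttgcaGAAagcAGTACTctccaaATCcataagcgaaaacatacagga
Zfp991: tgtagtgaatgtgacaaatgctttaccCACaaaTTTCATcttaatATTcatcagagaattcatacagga
Zfp992: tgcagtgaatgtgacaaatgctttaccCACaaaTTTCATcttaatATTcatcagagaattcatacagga
Zfp984: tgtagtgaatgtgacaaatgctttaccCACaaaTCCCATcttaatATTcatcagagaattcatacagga
Zfp934: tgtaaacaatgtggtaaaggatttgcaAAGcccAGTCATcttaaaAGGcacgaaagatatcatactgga
Zfp997: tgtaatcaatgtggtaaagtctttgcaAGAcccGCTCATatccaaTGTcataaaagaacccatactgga
Zfp998: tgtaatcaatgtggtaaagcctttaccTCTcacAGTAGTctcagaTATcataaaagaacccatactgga

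On chromosome 2 the copies were closest. Zfp966, Zfp967 and Zfp969 had the same coding sequence over all 1455 bases, and Zfp965 and Zfp973 over all 954 bases. The first finger of Zfp970 equalled that of Zfp965 at every base, and that of Zfp966 differed from both at 9 bases. On chromosome 4, Zfp991 and Zfp992 differed at 8 of 1719 coding bases, and Zfp987 and Zfp988 at 94 of 1899. The first fingers of Zfp997 and Zfp998 differed at 15 bases.

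A read of 100 bases cannot be placed by its own sequence where genes share longer stretches. Reads came in pairs, and placement through the other read of a pair was not counted in the shares below. Over the 66 genes, the share of a gene's 100-base transcript words that also occurred in another gene had a median of 4.93%, and it exceeded 20% in 23 genes. Its median was 76.6% in the chromosome 2 cluster, 36.7% in the chromosome 4 cluster and 0.70% in the chromosome 17 cluster, and it was 100% for Zfp967 and Zfp969. Values of genes with high shares are uncertain as single genes, and sums are given below for the chromosome 4 cluster and for 6 near copies on chromosome 2. Reads of all strains were aligned to a C57BL/6J-based reference, and the effect of castaneus sequence differences on each gene was not measured here.

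The 66 genes were most abundant in the stem cell lines. Their summed level was 1380 and 1547 CPM in the B6D2F1 lines, 1998 to 2365 CPM in the CAST lines and 2153 to 2791 CPM in the CASP lines, against 1097 CPM in the ESC library, 302 CPM in MEF and 356 CPM in TTF. Most of the difference lay in the chromosome 4 cluster, which is the bright block at the top of the heat map. Per kb of exon, the highest mean levels in the 10 ntESC lines were those of Zfp978 (56.2 CPM per kb), Zfp988 (48.0) and Zfp979 (44.0), all in that cluster. The lowest were those of Zfp964 (0.154 CPM per kb) on chromosome 8, Zfp968 (0.504) on chromosome 2 and Zfp974 (0.631) outside the clusters. The median over the 66 genes was 3.50 CPM per kb.

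**Figure D1:**
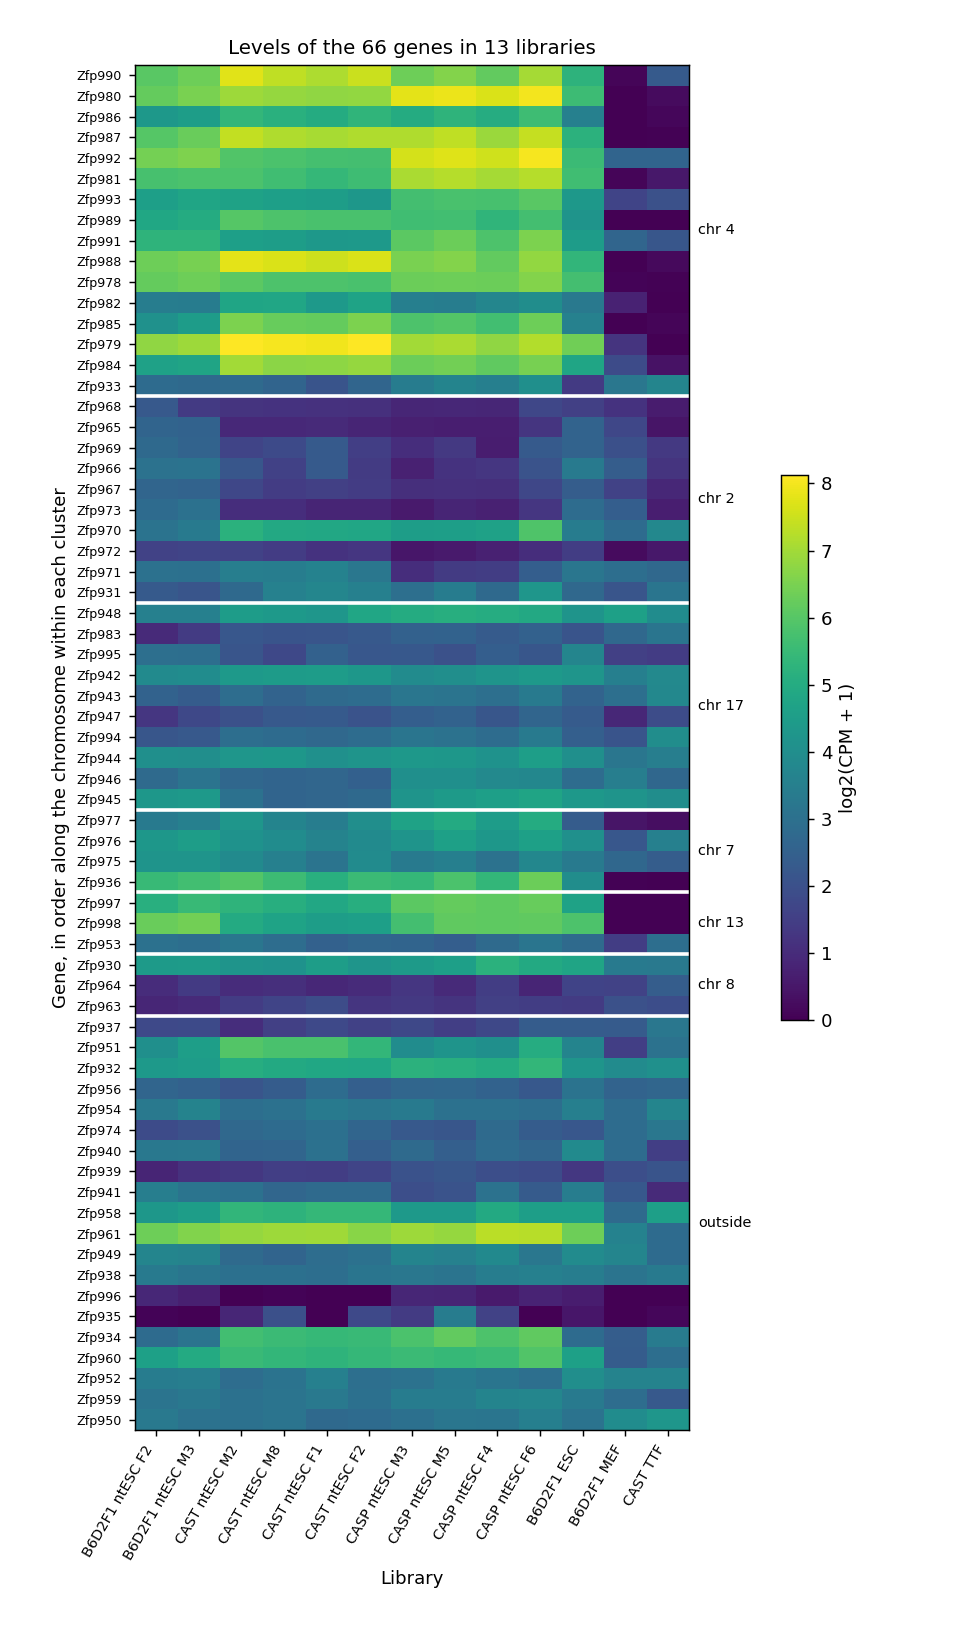
Level of each of the 66 genes (rows, grouped by cluster and in order along the chromosome) in each of the 13 libraries (columns), as log2(CPM + 1) in colour. Apart from Zfp933, the chromosome 4 rows are brighter in all 10 ntESC lines and the ESC library than in MEF and TTF, where the cluster summed to 25.8 and 29.0 CPM.

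Between the ntESC lines and the fibroblasts, 30 of the 66 genes were higher in the ntESC lines, 3 were lower and 33 did not pass the test (edgeR adjusted p below 0.05). Over all genes tested the percentage called was 51.5%, with 23.4% higher and 28.1% lower in the ntESC lines. The median log2 difference of the 66 genes was 0.95, beside 0.07 over all genes. Of 298 other genes named Zfp and a number, 55 were higher and 95 lower. Calls rest on 2 fibroblast libraries that differ from each other, and library-size scaling moved the median of all genes to 0.21. With a coefficient for each strain and fibroblast library, 40 of the 66 were higher and 8 lower.

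The chromosome 4 cluster carried 15 of these 30 genes. Summed over its 16 members it stood at 764 and 866 CPM in the B6D2F1 lines, between 1287 and 1592 CPM in the CAST lines, between 1293 and 1765 CPM in the CASP lines and at 503 CPM in the ESC library. The single exception was Zfp933, at the end of the cluster, with 3.29 to 15.8 CPM in the ntESC lines, 8.40 CPM in MEF and 11.9 CPM in TTF (log2 difference -0.41 ± 0.48 SE, adjusted p = 0.495 by edgeR). Zfp933 was also the only member of the cluster with none of its 100-base words in another gene.

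In all, 7 members had at least 1 CPM in every ntESC line and at most 3 counts in both fibroblast libraries, where 0.94% of all genes did (1.08% in either direction). None was on in the fibroblasts and off in the ntESC lines (0.138% of all genes). They were Zfp978, Zfp985, Zfp987 and Zfp989 on chromosome 4, Zfp936 on chromosome 7, and Zfp997 and Zfp998 on chromosome 13. Zfp989 lay between 27.7 and 63.0 CPM in the ntESC lines (median 50.5) and had no count in MEF or TTF, so that it was at least 603-fold higher, with 3 counts per library as the floor (adjusted p = 8.82e-08 by edgeR). Zfp987 lay between 62.1 and 171 CPM (median 142) with 1 count in MEF and 1 in TTF (adjusted p = 6.94e-08 by edgeR). Zfp936 lay between 34.2 and 77.6 CPM (median 45.8) with 2 counts in MEF and none in TTF (adjusted p = 9.03e-08 by edgeR). For these 3 genes no ntESC line came near the fibroblast libraries.

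Zfp997 and Zfp998 are a pair known as Snerv1 and Snerv2, repressors of non-ecotropic endogenous retroviruses in mice. Neither had a count in MEF or TTF. Zfp997 (named Gm10324 in GENCODE M21, chromosome 13, 66119547 to 66122836) stood at least 623-fold higher in ntESC lines (adjusted p = 9.70e-07 by edgeR). Zfp998 (2410141K09Rik, 66418114 to 66441118) was at least 656-fold higher (adjusted p = 7.71e-06 by edgeR). Zfp961 on chromosome 8, outside the clusters and chosen after its values were seen, was high in the ntESC lines as well (118 ± 23.2 CPM, SD, n = 10, against 11.1 CPM in MEF and 6.16 CPM in TTF; log2 difference 3.72 ± 0.33 SE, adjusted p = 2.06e-06 by edgeR).

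The genes lower in the ntESC lines were Zfp950, Zfp964 and Zfp937, the last with overlapping libraries. Zfp950 on chromosome 19 stood at 7.66 ± 1.32 CPM (SD, n = 10) in the ntESC lines, 14.5 CPM in MEF and 18.5 CPM in TTF (log2 difference -1.16 ± 0.24 SE, adjusted p = 0.00143 by edgeR). Zfp964 stood at 1.17 ± 0.332 CPM against 2.04 CPM in MEF and 4.24 CPM in TTF (-1.48 ± 0.38 SE, adjusted p = 0.00587 by edgeR). Zfp937, named after its values were seen, stood at 2.33 ± 0.789 CPM against 4.05 CPM in MEF and 8.27 CPM in TTF. Without the TTF library the calls of Zfp964 and Zfp937 were lost (adjusted p = 0.192 and 0.221 by edgeR). Few members of the chromosome 2 and chromosome 17 clusters passed this test, which pools the strains. Higher in the ntESC lines were 1 of 10 (Zfp972) and 2 of 10 (Zfp944 and Zfp995), and none was lower, beside 23.4% and 28.1% of all genes. The calls of Zfp972 and Zfp995 were lost without MEF. By strain and without a test, the chromosome 2 cluster summed to 53.7 CPM in the B6D2F1 lines against 33.8 CPM in MEF. In the CAST lines it summed to 61.7 CPM against 32.4 CPM in TTF. The chromosome 17 cluster summed to 84.8 CPM in the B6D2F1 lines against 88.7 CPM in MEF. In the CAST lines it summed to 93.5 CPM against 98.6 CPM in TTF.

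Strain differences among the ntESC lines were found in most members. Against B6D2F1, CAST was higher in 25 of the 66 genes and lower in 14 (59.1% called), and 26 were higher in CASP and 11 lower (56.1% called). Over all genes tested, 32.7% were called between CAST and B6D2F1 (17.4% higher, 15.3% lower) and 35.5% between CASP and B6D2F1 (17.9% and 17.5%). Both comparisons use the same 2 B6D2F1 lines. Between CASP and CAST, 20 genes were higher in CASP and 10 lower, beside 31.5% of all genes called (15.2% and 16.3%). Set together as castaneus, the 8 lines differed from B6D2F1 in 42 of the 66 genes, 28 higher and 14 lower, beside 34.5% of all genes (17.2% and 17.3%).

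Of the 298 other Zfp genes, 38 stood higher in CAST and 56 lower, and 53 stood higher in CASP and 50 lower. Among the 43 members with at most 20% of shared words, 16 were higher and 7 lower in CAST (53.5% called). Among the 23 members above it 9 were higher and 7 lower (69.6%). In CASP, 16 of the 43 were higher and 4 lower (46.5%), and 10 of the 23 were higher and 7 lower (73.9%). The share called was thus larger among the members whose reads are less certain, more so in CASP. The 39 calls in CAST fell to 18 without B6D2F1 F2 and to 23 without M3, and the 37 in CASP fell to 24 without F2. Of the 39, 16 kept their call under every alternative tried, and so did 21 of the 37 and 22 of the 30 between CASP and CAST.

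**Figure D2:**
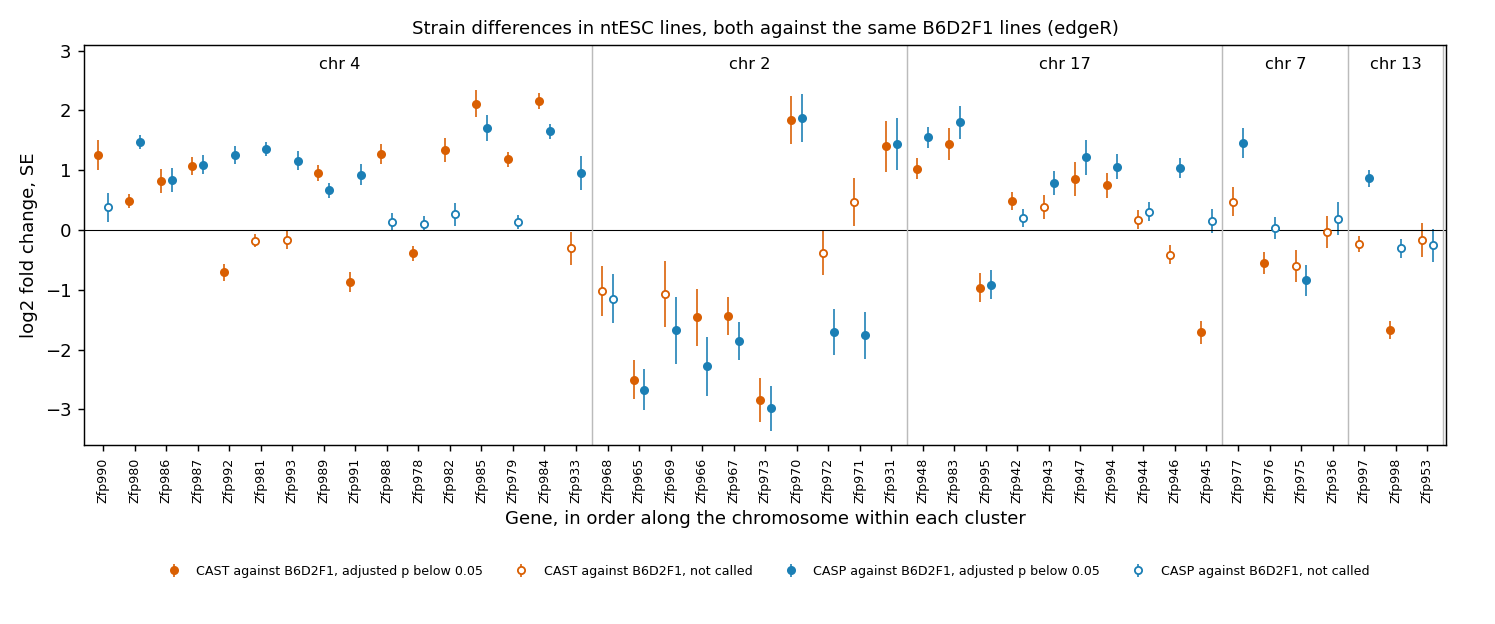
Log2 fold change and SE of each gene of 5 clusters in CAST (orange) and CASP (blue) ntESC lines against the same 2 B6D2F1 lines, filled where the edgeR adjusted p was below 0.05. On chromosome 4 both strains are above 0 at Zfp984 and Zfp985 and part at Zfp991 and Zfp992, and on chromosome 2 a run of genes lies below 0 beside Zfp970 and Zfp931 above it.

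In the chromosome 4 cluster, 10 of 16 members were higher in CAST than in B6D2F1 and 3 were lower, 11 were higher and none lower in CASP, and 7 were higher and 6 lower in CASP than in CAST. As many members, 13 of 16, were called between the castaneus strains as between CAST and B6D2F1. The shares of all genes called were 31.5% and 32.7% in these comparisons, and 35.5% between CASP and B6D2F1. Summed over the cluster, the levels were 815 ± 72.0 CPM in B6D2F1 (SD, n = 2), 1427 ± 127 CPM in CAST (n = 4) and 1509 ± 203 CPM in CASP (n = 4), and the ranges of CAST and CASP overlapped.

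A first set of genes was higher in both castaneus strains. For Zfp984, the first named, 30.9% of words were shared with other genes. Zfp984 (chromosome 4, 147753974 to 147809788) stood at 24.3 and 26.0 CPM in the B6D2F1 lines, at 104, 107, 115 and 128 CPM in the CAST lines and at 70.3, 78.8, 83.0 and 87.6 CPM in the CASP lines, with no overlap between any of the strains. Its log2 fold change was 2.16 ± 0.13 SE (adjusted p = 1.93e-06 by edgeR) in CAST and 1.65 ± 0.13 SE (adjusted p = 8.73e-06 by edgeR) in CASP. Zfp985, in the same cluster (147553277 to 147585198), of which 1.73% of words were shared, stood at 16.2 and 21.5 CPM in B6D2F1, at 72.8 to 91.0 CPM in CAST and at 49.8 to 79.8 CPM in CASP (2.11 ± 0.22 SE, adjusted p = 6.66e-05 by edgeR, and 1.70 ± 0.21 SE, adjusted p = 0.000195 by edgeR). Zfp986, Zfp987 and Zfp989 were likewise higher in both, by 0.66 to 1.10 on the log2 scale. Their shares of words in other genes were 70.0%, 70.8% and 42.5%. The call of Zfp986 was lost without B6D2F1 F2 in both strains (adjusted p = 0.124 and 0.109 by edgeR), and without M3 in CAST (0.0547).

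A second set was higher in CAST and close to B6D2F1 in CASP. Zfp979 stood at 109 and 123 CPM in the B6D2F1 lines, at 247, 257, 277 and 280 CPM in the CAST lines and at 109, 126, 135 and 144 CPM in the CASP lines. Only the CAST lines stood apart (log2 fold change 1.18 ± 0.12 SE, adjusted p = 7.59e-05 by edgeR), and CASP was lower than CAST by 1.05 ± 0.10 SE (adjusted p = 3.32e-05 by edgeR). Zfp988 showed the same order, with 83.3 ± 5.94, 202 ± 17.6 and 92.1 ± 16.5 CPM (1.27 ± 0.16 SE in CAST, adjusted p = 0.000257 by edgeR). So did Zfp982 (9.70 ± 0.179, 24.7 ± 3.02 and 11.8 ± 2.22 CPM) and Zfp990 (72.6 ± 10.7, 174 ± 32.6 and 95 ± 26.8 CPM). The share of words in other genes was 21.5% for Zfp979, 44.6% for Zfp988, 3.06% for Zfp982 and 3.6% for Zfp990. The call of Zfp990 in CAST was lost without B6D2F1 F2 (adjusted p = 0.0634 by edgeR).

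A further set was highest in CASP. Zfp981 stood at 52.9 and 56.0 CPM in the B6D2F1 lines, at 42.2, 47.8, 48.7 and 55.5 CPM in the CAST lines and at 131, 135, 148 and 149 CPM in the CASP lines. Its log2 fold change was 1.36 ± 0.12 SE in CASP (adjusted p = 1.59e-05 by edgeR) and -0.18 ± 0.11 SE in CAST (adjusted p = 0.238 by edgeR). Zfp980 stood at 81.5 ± 11.9 CPM in B6D2F1, 115 ± 6.19 CPM in CAST and 229 ± 21.1 CPM in CASP, with the 3 strains in separate ranges, and its call in CAST was lost without B6D2F1 F2 (adjusted p = 0.131 by edgeR). Zfp993 stood at 24.8 ± 2.06, 22.2 ± 2.48 and 55.9 ± 6.21 CPM. The share of words in other genes was 12.2% for Zfp981, 45.6% for Zfp980, 71.85% for Zfp993 and 60.5% for Zfp978. Zfp933 was highest in CASP as well, at 6.05 ± 0.174, 4.93 ± 1.16 and 11.9 ± 2.72 CPM, but its call against B6D2F1 (adjusted p = 0.0242 by edgeR) was lost without either B6D2F1 line (0.122 and 0.153) and without CASP F4 and F6 together (0.106). Zfp978 was lowest in CAST, at 76.6 ± 5.66, 59.0 ± 5.47 and 83.4 ± 8.93 CPM. Its call against B6D2F1 (-0.39 ± 0.13 SE, adjusted p = 0.0382 by edgeR) was lost without either B6D2F1 line, CAST M8, F1 or F2, or CASP M5 (0.0565 to 0.301).

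Zfp992 and Zfp991 were the only members called in opposite directions in the castaneus strains. Zfp992 (chromosome 4, 146449023 to 146470292) stood at 84.6 and 92.6 CPM in the B6D2F1 lines, at 50.8, 52.2, 55.8 and 60.1 CPM in the CAST lines and at 185, 194, 213 and 260 CPM in the CASP lines. It fell by 0.71 on the log2 scale in CAST (SE 0.14, adjusted p = 0.0033 by edgeR), rose by 1.25 ± 0.15 SE in CASP (adjusted p = 0.000135 by edgeR), and differed by 1.96 ± 0.12 SE between them (adjusted p = 1.8e-06 by edgeR). Without B6D2F1 M3 the call in CAST was lost (adjusted p = 0.057 by edgeR). Zfp991 (147132038 to 147180579) had 38.2 ± 0.353, 21.1 ± 1.80 and 73.4 ± 14.3 CPM, a difference of 1.79 ± 0.14 SE between CASP and CAST (adjusted p = 1.08e-05 by edgeR). The coding sequences of the pair are 99.5% identical, so part of their reads cannot be assigned to 1 of them. The share of words in other genes was 28.6% for Zfp992, where 24.8% of words occurred in Zfp991. For Zfp991 it was 70.3%, and 56.9% of its words occurred in the pseudogene Znf41-ps, so its reads are uncertain beyond the pair. Both genes stood in the order CAST, B6D2F1, CASP, as did the summed pluripotency markers, and whether these are linked was not tested.

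**Figure D3:**
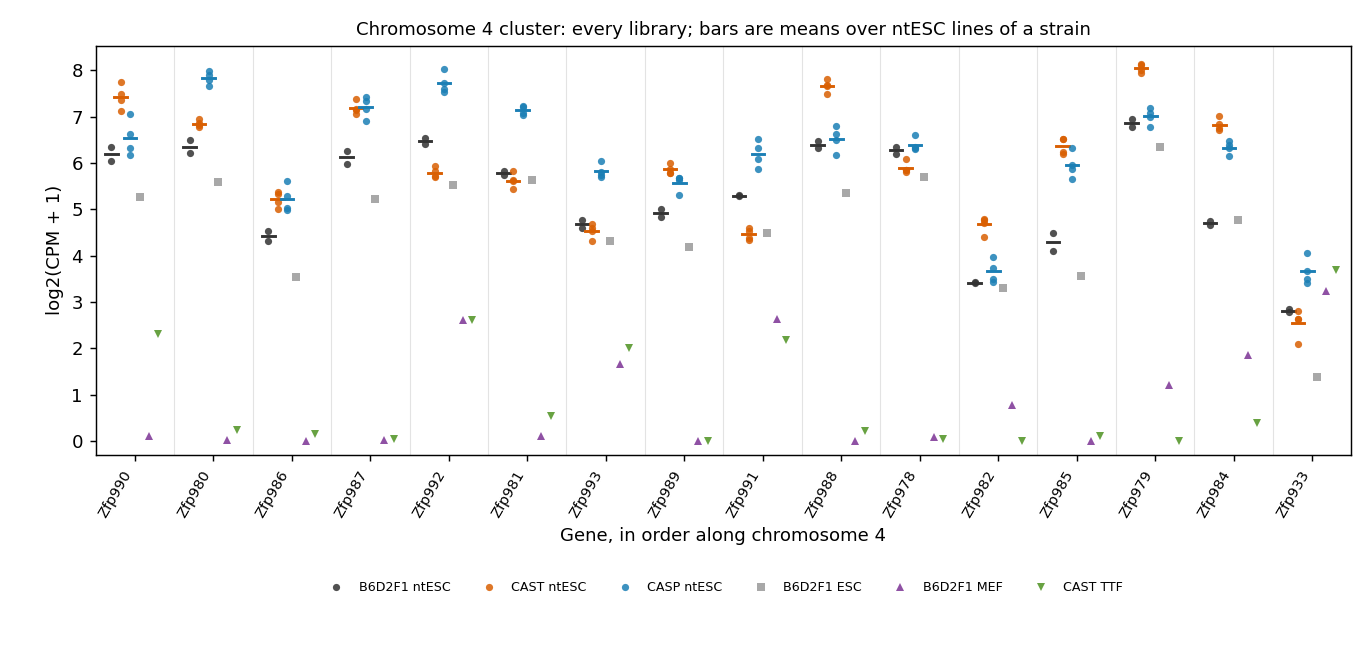
Level of each chromosome 4 member in every library, as log2(CPM + 1), with a bar at the mean over the ntESC lines of a strain. CAST lines lie highest at Zfp979 and Zfp988, CASP lines at Zfp980, Zfp981 and Zfp992, and the MEF and TTF points lie far below the ntESC lines at every gene but Zfp933.

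The chromosome 2 cluster was lower in castaneus for its near copies and higher for 2 other members. Summed over Zfp965, Zfp966, Zfp967, Zfp968, Zfp969 and Zfp973, the level was 33.7 and 31.3 CPM in the B6D2F1 lines, 11.3, 9.54, 12.7 and 7.99 CPM in the CAST lines, and 4.90, 6.30, 5.29 and 14.6 CPM in the CASP lines, the last in F6. All castaneus lines lay below both B6D2F1 lines. The fibroblast libraries had 17.3 CPM in MEF and 5.27 CPM in TTF, and the ESC library 31.4 CPM, so that the 2 fibroblast libraries differed in the same direction as the strains, a gap without a test.

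Singly, Zfp973 stood at 6.15 and 7.18 CPM in the B6D2F1 lines, at 0.778 to 1.08 CPM in the CAST lines and at 0.493 to 1.45 CPM in the CASP lines (log2 fold change -2.84 ± 0.37 SE, adjusted p = 0.0003 by edgeR, and -2.98 ± 0.38 SE, adjusted p = 0.000202 by edgeR). Its copy Zfp965 stood at 5.02 ± 0.18, 0.892 ± 0.0761 and 0.813 ± 0.385 CPM (-2.50 and -2.67, adjusted p = 0.000322 and 0.000194 by edgeR). Zfp967 and Zfp966 were called lower in both strains, Zfp969 in CASP and Zfp968 in neither. Without B6D2F1 M3, Zfp966 lost both calls (adjusted p = 0.322 and 0.0651 by edgeR) and Zfp967 its call in CAST (0.0757). The call of Zfp966 in CAST was also lost without B6D2F1 F2, CAST M8, CAST F2 or CASP M5 (0.0561 to 0.0943). The call of Zfp969 in CASP (0.0383) was lost without either B6D2F1 line, CAST M2 or M8, or CASP M3 or M5 (0.0517 to 0.208).

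Zfp970 (chromosome 2, 177464733 to 177478129), of which 17.4% of words were shared, went the other way. It stood at 7.56 and 9.08 CPM in the B6D2F1 lines, at 26.9, 28.3, 29.2 and 35.3 CPM in the CAST lines and at 21.9, 22.3, 24.3 and 59.0 CPM in the CASP lines, the last again in F6. No castaneus line overlapped B6D2F1 (log2 fold change 1.83 ± 0.40 SE in CAST, adjusted p = 0.00591 by edgeR, and 1.88 ± 0.40 SE in CASP, adjusted p = 0.00487 by edgeR), but both calls were lost without B6D2F1 F2 (adjusted p = 0.0816 and 0.0775 by edgeR). Without CASP F6, Zfp970 was called lower in CASP than in CAST (-0.41, adjusted p = 0.0302 by edgeR), against 0.04 with it. Zfp931, with 6.91% of words shared, stood at 3.67 ± 0.345 CPM in B6D2F1, 9.88 ± 2.77 CPM in CAST and 10.3 ± 5.72 CPM in CASP. Its calls were lost without either B6D2F1 line (adjusted p = 0.107 to 0.197 by edgeR), in CAST also without M8 or F1 (0.0774 and 0.0519) and in CASP without M5 (0.0565).

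Zfp971 and Zfp972 were lower in CASP alone. Zfp971 stood at 7.01 and 7.12 CPM in the B6D2F1 lines, at 8.38, 9.89, 10.1 and 11.1 CPM in the CAST lines and at 1.07, 1.64, 1.78 and 4.39 CPM in the CASP lines, the last in F6. CASP was lower than CAST by 2.23 (log2 difference -2.23 ± 0.35 SE, adjusted p = 0.000914 by edgeR) and than B6D2F1 by 1.76 (-1.76 ± 0.39 SE, adjusted p = 0.00615 by edgeR; 0.0788 without B6D2F1 M3). Zfp972 stood at 2.11 ± 0.127, 1.63 ± 0.334 and 0.662 ± 0.301 CPM, and its difference between CASP and CAST (-1.33 ± 0.34 SE, adjusted p = 0.0132 by edgeR) was lost without CASP M5 (0.0533). Its call in CASP against B6D2F1 was lost without B6D2F1 M3 (0.0724).

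**Figure D4:**
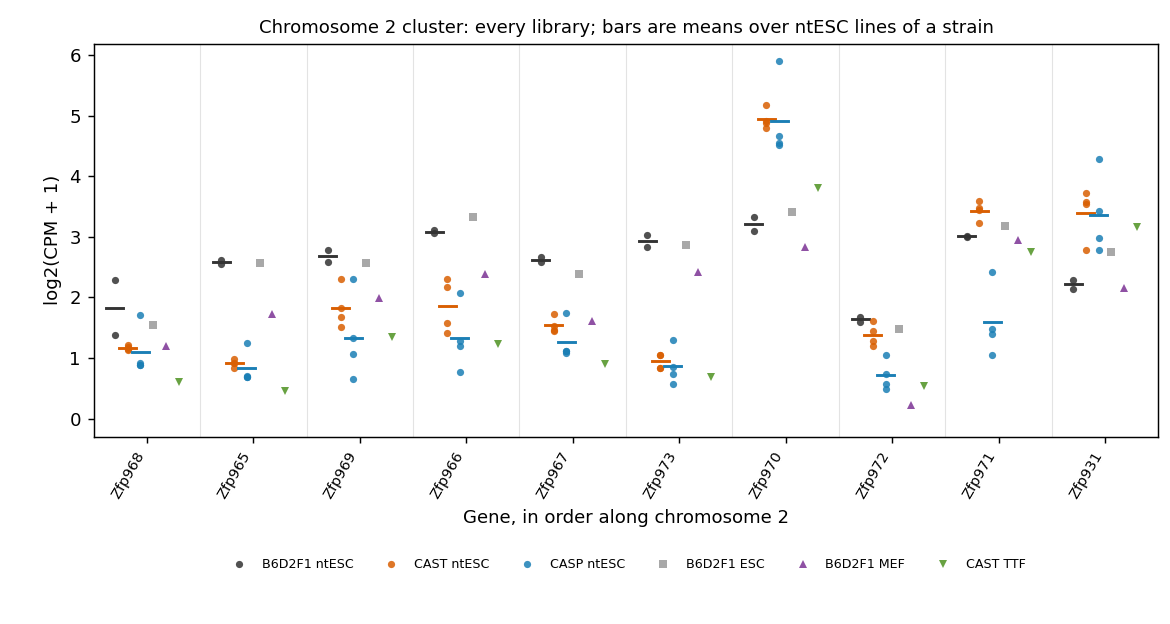
Level of each chromosome 2 member in every library, as log2(CPM + 1), with a bar at the mean over the ntESC lines of a strain. The B6D2F1 points lie above the castaneus lines at Zfp965 and Zfp973, below them at Zfp970, and 1 CASP line (F6) lies above the rest of its strain at most genes.

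On chromosome 17 the members share few words with other genes, so values of single genes are less uncertain. Against B6D2F1, 5 of the 10 members were higher and 2 lower in CAST, 6 were higher and 1 lower in CASP, and CASP exceeded CAST in 3. These are 70%, 70% and 30% of the 10, beside 32.7%, 35.5% and 31.5% of all genes. Zfp948 stood at 10.6 CPM in both B6D2F1 lines, at 18.3, 19.7, 21.6 and 27.3 CPM in the CAST lines and at 29.1, 31.3, 31.8 and 33.3 CPM in the CASP lines, a separate range for each strain. Its log2 fold change was 1.02 ± 0.17 SE in CAST (adjusted p = 0.00156 by edgeR) and 1.55 ± 0.18 SE in CASP (adjusted p = 0.000114 by edgeR). Zfp983 stood at 0.972 and 1.66 CPM in B6D2F1, 3.56 ± 0.261 CPM in CAST and 4.59 ± 0.398 CPM in CASP (1.80 ± 0.27 SE in CASP, adjusted p = 0.000602 by edgeR), and its call in CAST was lost without B6D2F1 F2 (0.0502).

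At the far end of the cluster, Zfp945 (chromosome 17, 22846697 to 22867134) was low in CAST alone. It stood at 18.6 and 19.8 CPM in the B6D2F1 lines, at 5.10, 5.50, 5.85 and 7.27 CPM in the CAST lines, at 17.4, 20.7, 23.0 and 26.0 CPM in the CASP lines, and at 19.2, 17.3 and 14.8 CPM in ESC, MEF and TTF. The CAST lines lay below every other library, the CAST fibroblasts included. The log2 fold change was -1.71 ± 0.19 SE against B6D2F1 (adjusted p = 0.000104 by edgeR) and CASP exceeded CAST by 1.87 ± 0.17 SE (adjusted p = 2.49e-05 by edgeR). Zfp946, the member next to it, was high in CASP, with 6.85 ± 1.15, 5.16 ± 0.393 and 14.2 ± 1.58 CPM (1.45 ± 0.13 SE between CASP and CAST, adjusted p = 2.96e-05 by edgeR). Zfp995 was the member lower in both castaneus strains (6.78 ± 0.175, 3.57 ± 0.973 and 3.67 ± 0.577 CPM), with both calls lost without B6D2F1 M3 (adjusted p = 0.158 and 0.183 by edgeR) or F2 (0.0533 and 0.0589), and in CASP without F4 and F6 together (0.0668). Zfp947 and Zfp994 were higher in both strains (0.75 to 1.22 on the log2 scale), Zfp942 in CAST (0.49) and Zfp943 in CASP (0.79), each call lost without B6D2F1 F2 or M3 except that of Zfp994 in CASP. The calls of Zfp942 and Zfp947 in CAST were also lost without several castaneus lines. Zfp944 did not pass the test between strains, at 15.5 ± 0.189, 17.6 ± 1.17 and 19.4 ± 2.47 CPM.

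On chromosome 13, Zfp998 was low in CAST and Zfp997 high in CASP. Zfp998 stood at 76.1 and 82.7 CPM in the B6D2F1 lines, at 21.8, 23.3, 25.4 and 30.2 CPM in the CAST lines and at 51.2, 68.8, 69.2 and 69.7 CPM in the CASP lines. It was lower in CAST than in B6D2F1 by 1.67 (log2 fold change -1.67 ± 0.16 SE, adjusted p = 3.64e-05 by edgeR) and higher in CASP than in CAST by 1.36 ± 0.14 SE (adjusted p = 5.44e-05 by edgeR). Zfp997, with 30.1% of words shared, stood at 34.1 and 43.2 CPM in B6D2F1, at 28.3 to 37.7 CPM in CAST and at 66.2 to 74.8 CPM in CASP (0.86 against B6D2F1, SE 0.14, adjusted p = 0.000828 by edgeR). Zfp953, also in this cluster, was not called between any strains.

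The largest rise against B6D2F1 among members past the test was that of Zfp934, which lies on chromosome 13 (62479827 to 62571199, minus strand) outside the clusters. It stood at 6.25 and 7.67 CPM in the B6D2F1 lines and 6.19 CPM in the ESC library, at 42.7, 44.9, 45.7 and 49.8 CPM in the CAST lines and at 55.7, 57.4, 70.2 and 71.3 CPM in the CASP lines. The ranges of the 3 strains did not overlap. The log2 fold change was 2.71 ± 0.16 SE in CAST (adjusted p = 1.47e-06 by edgeR) and 3.18 ± 0.17 SE in CASP (adjusted p = 4.71e-07 by edgeR), and under all alternatives it stayed within 2.60 to 2.84 and 3.08 to 3.32. The fibroblast libraries had 4.22 CPM in MEF and 9.48 CPM in TTF. The call between ntESC lines and fibroblasts (adjusted p = 0.0224 by edgeR) was lost without MEF (0.134) or TTF (0.0518).

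Zfp935 (62453715 to 62558511) overlaps Zfp934 on the same strand and shares 99.4% of its words with another gene, so its reads are uncertain. It was picked out here after its values were seen. It had 0.0525 and 0 CPM in the B6D2F1 lines, 0.848 CPM in CAST M2, 2.96 CPM in M8, 0 in F1 and 2.44 CPM in F2. The CASP lines had 1.65 CPM in M3, 9.57 CPM in M5, 2.06 CPM in F4 and 0 in F6. Lines of 1 strain thus ran from no count to several CPM, the strains overlapped, and no call was made (adjusted p = 0.112 by edgeR in CAST and 0.0733 in CASP). In CASP a call appeared with DESeq2 (adjusted p = 0.0421) and, by edgeR, without CAST F1 (0.039) or CASP F6 (0.0328).

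**Figure D5:**
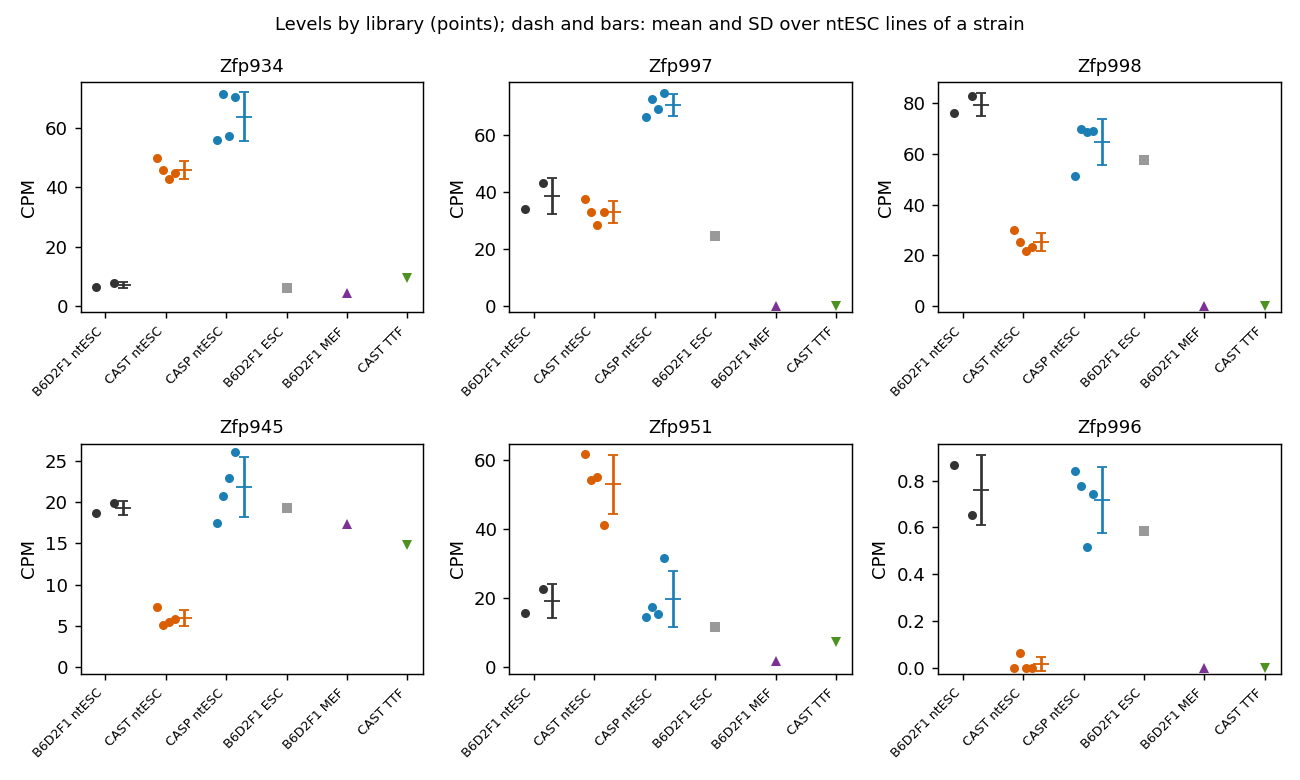
CPM of 6 genes in every library (points, by group), with the mean and SD over the ntESC lines of a strain beside them; each panel has its own axis. Zfp934 is low in the B6D2F1 libraries and in TTF (9.48 CPM) and high in the ntESC lines of both castaneus strains, Zfp998 and Zfp945 are low in the CAST lines, Zfp951 is high in them, and Zfp996 is at or near 0 there.

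On chromosome 7, 2 of 4 members were called between CASP and B6D2F1, 2 between CASP and CAST and 1 between CAST and B6D2F1. These are 50%, 50% and 25% of the 4, beside 35.5%, 31.5% and 32.7% of all genes. Zfp977 on chromosome 7 was higher in CASP (27.1 ± 4.48 CPM) than in B6D2F1 (9.79 ± 1.03 CPM; log2 fold change 1.45 ± 0.25 SE, adjusted p = 0.00155 by edgeR), with CAST at 13.7 ± 3.67 CPM. CASP was also higher than CAST, by 0.98 on the log2 scale for Zfp977 (adjusted p = 0.0037 by edgeR) and by 0.57 for Zfp976 (0.0151; 0.0541 without CASP M5 and 0.125 without CASP F4 and F6 together). Zfp936 did not pass the test between any strains, at 47.1 ± 4.70, 46.6 ± 10.8 and 54.1 ± 17.1 CPM. Zfp976 was called lower in CAST (-0.55, adjusted p = 0.0396 by edgeR) and Zfp975 in CASP (-0.84, adjusted p = 0.0309 by edgeR), both calls lost without either B6D2F1 line (0.14 to 0.253) and without several other lines. All 4 members of the chromosome 7 cluster were higher in the ntESC lines than in the fibroblasts, beside 23.4% of all genes tested. The call of Zfp975 was lost without TTF and that of Zfp976 without MEF. On chromosome 8, Zfp930 was at 20.8 ± 0.394, 18.6 ± 2.47 and 27.2 ± 6.74 CPM, with its 2 highest values in CASP F4 (35.5 CPM) and F6 (29.7 CPM). Its call between CASP and CAST (0.53 ± 0.14 SE, adjusted p = 0.0163 by edgeR) was lost without both of these lines (0.178) and without CAST F2 (0.0537). Zfp963 was higher in CAST (1.99 ± 0.583 CPM) than in B6D2F1 (0.883 ± 0.0971 CPM; adjusted p = 0.0288 by edgeR), a call lost without either B6D2F1 line, CAST M8 or CAST F1 (0.0587 to 0.218).

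Outside the clusters, 7 of 20 members were higher and 3 lower in CAST, and 5 higher and 2 lower in CASP. These are 50% and 35% of the 20, beside 32.7% and 35.5% of all genes. Zfp951 on chromosome 5 (104813169 to 104860070) stood at 15.7 and 22.8 CPM in the B6D2F1 lines, at 41.2, 54.1, 55.0 and 61.7 CPM in the CAST lines and at 14.4, 15.6, 17.4 and 31.6 CPM in the CASP lines. CASP was lower than CAST (log2 difference -1.43 ± 0.26 SE, adjusted p = 0.0022 by edgeR), and the rise in CAST over B6D2F1 (1.45 ± 0.33 SE, adjusted p = 0.00763 by edgeR) was lost without B6D2F1 F2 (0.104). Chosen after their values were seen, Zfp958 on chromosome 8 was also high in CAST alone (20.4 ± 2.12, 40.1 ± 2.37 and 23.1 ± 4.50 CPM), and Zfp949 on chromosome 9 was low there (11.7 ± 0.413, 6.19 ± 0.902 and 11.1 ± 2.15 CPM), the latter call lost without either B6D2F1 line (adjusted p = 0.0641 and 0.0776 by edgeR). Zfp932, known with its paralogue Gm15446 as a repressor of endogenous retroviruses, was named for that role, after its values were seen. It rose in both strains, from 20.6 ± 1.11 CPM to 29.2 ± 2.33 and 35.4 ± 4.18 CPM (0.49 and 0.77, adjusted p = 0.0232 and 0.00224 by edgeR), and the call in CAST was lost without either B6D2F1 line, CAST M2 or CAST M8 (0.0509 to 0.146). Zfp939, a transcribed pseudogene, stood at 1.01 ± 0.308, 1.83 ± 0.268 and 3.05 ± 0.376 CPM, and its rise in CASP (1.59 ± 0.30 SE, adjusted p = 0.00243 by edgeR) kept its call under every alternative. Its call in CAST against B6D2F1 was lost under 9 alternatives, 8 of which left out 1 line (adjusted p = 0.0506 to 0.34 by edgeR), and that between CASP and CAST under 7 (0.0544 to 0.0976). Zfp940 was called lower and Zfp960 higher in both strains, Zfp941 lower in CASP, Zfp974 higher in CAST and Zfp959 higher in CASP than in CAST, and each of these calls was lost under at least 1 alternative. Of the 20, Zfp938, Zfp950, Zfp952, Zfp954 and Zfp956 were among those called between no strains. Zfp938, Zfp939, Zfp940, Zfp941, Zfp952, Zfp954, Zfp956, Zfp959 and Zfp960 were chosen after their values were seen.

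No member was switched fully on or off between strains. By the rule of at least 1 CPM in every line of one strain and at most 3 counts in every line of the other, 0 of 66 genes were found in each of the 3 pairs of strains, where 0.396% of all genes were found between CAST and B6D2F1 (0.286% on in CAST, 0.111% on in B6D2F1), 0.415% between CASP and B6D2F1 (0.244% and 0.17%) and 0.138% between CASP and CAST (0.0691% each way). With 0.5 CPM as the lower bound, Zfp996 was off in CAST and on in both other strains, and it is described for that pattern. At that bound, 54 of all 21706 genes were on in B6D2F1 and off in CAST, and 118 the other way. Between CASP and CAST, 26 of all genes were on in CASP and off in CAST, and 32 the other way. Zfp996 (Gm40848 in GENCODE M21, a processed pseudogene on chromosome 12, 18387755 to 18388078) had 0.867 and 0.653 CPM in the B6D2F1 lines and 0.516 to 0.840 CPM in the CASP lines. Among the CAST lines it had 0.0625 CPM in M8, which is 3 counts, and none in M2, F1 and F2 (adjusted p = 0.000821 by edgeR against B6D2F1 and 0.000623 between CASP and CAST). MEF and TTF also had no count, and the ESC library 0.583 CPM.

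The B6D2F1 ESC library shares its strain with the B6D2F1 ntESC lines, is a single one and was not tested. Over the 66 genes its level lay below both B6D2F1 ntESC lines for 29, above both for 26 and between them for 11. On chromosome 4 it lay below both for 15 of 16 members, at a median of 0.575 of their mean. For Zfp990 it had 37.6 CPM against 65.0 and 80.1 CPM, and for Zfp933 1.62 CPM against 5.93 and 6.17 CPM. On chromosome 7 it lay below both for 4 of 4 members, and on chromosome 17 above both for 7 of 10. Over all 14414 genes with at least 1 CPM in these lines the median ratio was 0.959. How many of all genes lay below, above or between the 2 lines is not given here. The counts above are therefore not a trait shown to be particular to these members.

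Female and male ntESC lines did not differ in any member by edgeR, with 0 of 66 past the adjusted threshold, 1 with an unadjusted p below 0.05 and 0 by DESeq2. Over all genes 0.0494% were called (0.00494% higher and 0.0445% lower in females).

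Of 27 listed partners of KRAB zinc finger proteins in heterochromatin formation, 12 were higher in the ntESC lines than in the fibroblasts and 3 were lower, 55.6% of the list beside 51.5% of all genes. Trim28, the corepressor bound by KRAB domains, stood at 1470 ± 201 CPM (SD, n = 10) against 372 ± 294 CPM (n = 2; log2 difference 1.94 ± 0.37 SE, adjusted p = 0.000794 by edgeR). Uhrf1, which reads hemimethylated DNA, was higher by 2.75 ± 0.79 SE (adjusted p = 0.0109 by edgeR). It stood at 914 ± 94.1 CPM against 132 ± 173 CPM, so the 2 fibroblast libraries differed widely. Values without MEF or TTF are not given for these partners. Chd3, a chromatin remodeller, and Senp7, a SUMO protease, were lower (-3.34 ± 0.25 SE, adjusted p = 5.99e-07 by edgeR, and -2.55 ± 0.21 SE, adjusted p = 1.19e-06 by edgeR).

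Between CAST and B6D2F1, 5 of the 27 partners were lower in CAST and none was higher. In CASP 8 were lower and 1 was higher, and between CASP and CAST 8 were higher in CASP and 3 lower. These are 18.5%, 33.3% and 40.7% of the list, beside 32.7%, 35.5% and 31.5% of all genes. Trim28 stood at 1483 ± 113 CPM in B6D2F1, 1290 ± 148 CPM in CAST and 1644 ± 106 CPM in CASP and was not called against B6D2F1. It was higher in CASP than in CAST (0.34 ± 0.08 SE, adjusted p = 0.0104 by edgeR; 0.0744 without CASP F4 and F6 together). Daxx, a chaperone of histone H3.3 that works with ATRX, stood at 54.5 ± 1.29 CPM in CAST against 96.4 ± 7.0 CPM in B6D2F1 (-0.83 ± 0.08 SE, adjusted p = 5.29e-05 by edgeR) and 85.4 ± 2.59 CPM in CASP. Cbx3, a heterochromatin protein 1 family member, was lower in both castaneus strains (-0.58 and -0.68, adjusted p = 0.00439 and 0.00151 by edgeR; the first 0.0692 without B6D2F1 M3). Hdac1 was lower in CAST than in B6D2F1 (-0.88 ± 0.13 SE, adjusted p = 0.000526 by edgeR). Tasor was lower in CASP than in B6D2F1 (-0.89 ± 0.14 SE, adjusted p = 0.000799 by edgeR). The 3 partners lower in CASP than in CAST were Suv39h1, Tasor and Mphosph8 (-0.79, -0.73 and -0.61, adjusted p = 0.00234, 0.00113 and 0.0017 by edgeR). Whether these calls held under the alternatives is not given here. Setdb1 was higher in CASP (177 ± 28 CPM) than in CAST (106 ± 11.1 CPM; 0.73 ± 0.12 SE, adjusted p = 0.00159 by edgeR), with B6D2F1 at 127 ± 11.4 CPM. Its call in CASP against B6D2F1 (adjusted p = 0.0395 by edgeR) was lost without either B6D2F1 line, CAST F2, CASP M5 or CASP F6 (0.0501 to 0.315).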

How the data were processed

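RNA of 13 cultures was sequenced with a stranded poly(A) protocol as 100-base read pairs. Per the authors' methods and the labels, read trimming used fastp 0.22.0, alignment to GRCm38 used HISAT2 2.2.1 and gene-level quantification used StringTie 2.1.7. The deposited table holds whole counts per gene, without normalization. A second deposited table, of log2 values, was not used. The labels give no batch.

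CPM used TMM factors over all libraries. Strains were compared in the 10 ntESC lines with the edgeR 4.0.16 quasi-likelihood test (R 4.3.3), with sex as a covariate; ntESC lines against fibroblasts and female against male lines (strain as covariate) likewise. p-values were adjusted over all genes tested by Benjamini-Hochberg, with a threshold of 0.05. All 66 genes passed filterByExpr, a filter that a gene high in 1 group can pass. The tests were tried on simulated counts first. DESeq2 1.42.0, other scalings, filters, covariates and left-out libraries were alternatives.

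Genes were matched to GENCODE M21 by identifier (21664 of 21706). Fingers (C, 2 residues, C, 12 residues, H, 3 to 5 residues, H) and KRAB A boxes (first 120 residues) were sought in translated coding sequences of that release, in place of RefSeq proteins, which were not used here. Genes named are cluster members, up to 5 per direction and comparison of largest change with no overlap and at least 1 CPM, and the 3 highest and lowest per kb. Others were named after their values were seen. The members and lists were chosen with earlier results of these data known.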

Additional observations from a re-analysis of the deposited data

Results flagged for a closer look

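In 132 groups of 4 lines (CAST or CASP, 66 genes), 11 values, in 5 lines, stood apart from the rest of their group by Dixon's gap test; chance flags about 1 in 20 groups. Of these, 6 were high values of CASP F6. On chromosome 2, F6 had 2.29 CPM of Zfp968 (others 0.840 to 0.891), 1.39 CPM of Zfp965 (0.604 to 0.637), 2.35 CPM of Zfp967 (1.13 to 1.18) and 59.0 CPM of Zfp970 (21.9 to 24.3). It also had 96.7 CPM of Zfp978 on chromosome 4 (others 77.5 to 80.6) and 60.4 CPM of Zfp960 on chromosome 17 (43.1 to 45.9). In CASP F4, 38.7 CPM of Zfp989 (others 48.7 to 50.6) and 4.0 CPM of Zfp983 (4.72 to 4.83) were low, and in CASP M3 51.2 CPM of Zfp998 (68.8 to 69.7) was low. In CAST M2, 67.1 CPM of Zfp978 was high (others 55.1 to 56.9), and in CAST M8, 0.0625 CPM of Zfp996 was above 0 in the others.

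The differences of CAST and CASP from B6D2F1 went in opposite directions, with the difference between them past the edgeR threshold, for Zfp991 (1.79 on the log2 scale) and Zfp992 (1.96).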

How the results depend on the processing

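Leaving out 1 line moved the genes called between CAST and B6D2F1 from 39 to between 18 and 42, those between CASP and B6D2F1 from 37 to between 24 and 38, and those between castaneus (the mean of both strains) and B6D2F1 from 42 (28 higher, 14 lower) to between 17 and 46. All counts moved by over 1.5 times were those without a B6D2F1 line, which leaves 1 line in that arm, assumed to vary like the others. Between CASP and CAST the count was 30 (25 to 35), against fibroblasts 33 (31 to 34), and between the sexes 0 in all. Other scalings, filters, covariates, DESeq2 and leaving out CASP F4 and F6 together kept all counts within 1.5 times. On-off counts went from 0 to 1 with 0.5 CPM as the bound, in CAST against B6D2F1 and CASP against CAST (Zfp996). There were 6 clusters also with gaps of 1 Mb (46 members) or 5 Mb (51). Of 330 gene results, 205 kept their side of the threshold under every alternative and 1 reversed: Zfp970 between CASP and CAST went from 0.04 to -0.41 without CASP F6 and to -0.55 without F4 and F6 (-0.41 to 0.20 over all left-out lines). The cause was not tested. Against fibroblasts, library-size scaling raised the median of all genes from 0.07 to 0.21. No paired analysis was possible because the line numbers only name cultures.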

Other observations

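Between the first and last members of the clusters lie other genes, many of them pseudogenes in GENCODE M21. On chromosome 4, 41 of 50 such neighbours were higher in the ntESC lines than in the fibroblasts and none lower (edgeR), and against B6D2F1 CAST was higher in 22 and lower in 12, CASP in 20 and 4. Over all genes, 51.5% were called against fibroblasts, 32.7% in CAST and 35.5% in CASP. On chromosome 13, 33 of 50 were higher in the ntESC lines and 2 lower, 15 higher and 8 lower in CAST, and 28 higher and 1 lower in CASP. On chromosome 2, of 39 neighbours tested between strains, 16 were higher and 3 lower in CAST and 12 higher and 6 lower in CASP, while 4 and 7 of the 10 members there were lower. On chromosome 17, of 16 neighbours, 3 were higher and 3 lower in CAST (37.5% called), and 5 higher and 3 lower in CASP (50%). Against fibroblasts 5 were higher and 1 lower (37.5%), and on chromosome 2 16 of 40 were higher and none lower (40%).

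The summed level of 6 markers of the 2-cell-like state was 5.54 and 23.6 CPM in the B6D2F1 lines, 1.69 to 4.73 CPM in the CAST lines, 0.556 to 2.93 CPM in the CASP lines and 16.1 CPM in the ESC library. No marker was at 0 in all lines of a strain, and all were at 0 in MEF and TTF. Its part in the strain differences was not tested.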
